A study of Mus musculus with 6 samples.

Results

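The genes examined here are 10 members of a pair of growth factor systems of the liver, the EGF receptor with its relatives and ligands, and HGF with its receptor Met. They were taken by name from a table of 24346 genes, and all 10 were found there. The members are the receptor genes *Egfr*, *Erbb2* and *Erbb3*, the EGFR ligand genes *Areg*, *Ereg*, *Hbegf*, *Tgfa* and *Btc*, the ligand gene *Hgf* and the receptor gene *Met*. Whole-liver RNA was sequenced from 6 livers of male C57/BL6 mice, aged 8 weeks and taken 24 hours after an intraperitoneal dose of CCl4 (0.6 μl per g body weight, in sunflower oil). The 3 controls, labelled wt, were med23 f/f mice, and the other 3, labelled med23 ko, were med23 Δli mice. In med23 Δli mice *Albumin*-cre deletes floxed *Med23*, a subunit gene of the Mediator complex, and the paper describes the deletion as specific to hepatocytes. Both groups received CCl4, so no untreated liver enters the comparison, which shows how the transcript levels differ with the deletion after CCl4. The groups were not equally injured. At this time the paper reports substantial necrosis in controls and hardly any in med23 Δli livers, with fewer apoptotic cells and lower serum ALT and AST. The part of this difference in injury in the values below was not tested.

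EGFR and its relatives are receptor tyrosine kinases that act as pairs. ErbB2 has no known ligand of its own, ErbB3 has little kinase activity, and both depend on a partner. The EGFR ligands are made as membrane-anchored precursors and are released by proteases, chiefly ADAM17. HGF is secreted by the stellate and endothelial cells of the liver as an inactive precursor, is activated by serine proteases, and binds Met on hepatocytes. Both receptors signal through adaptors and Ras to the kinase ERK, and both are known for driving hepatocyte proliferation after liver injury or partial hepatectomy.

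Of the 10 members, 1 rose and 1 fell in livers labelled med23 ko. *Met* was 2.30 times as high as in the controls (mean 10.4 against 4.53 FPKM), and *Areg* was 5.52 times as high in the controls as in livers labelled med23 ko (mean 4.70 against 0.852 FPKM). FPKM, fragments per kilobase of transcript scaled to the fragments of the library, is a level per transcript length, so that levels of different genes can be set side by side. A gene was counted as risen or fallen at an adjusted p under 0.05 (limma on log2(FPKM + 0.1), Benjamini-Hochberg adjustment over the 11956 genes whose mean reached 0.5 FPKM). *Erbb2* lay under that minimum, and the other 9 members passed it. Among all genes tested, 11.6% were called higher and 9.48% lower at this threshold (21.1% in either direction), so that 1 rise and 1 fall among 9 members are near the background. At more than 2-fold as well, both calls held, against 4.45% of all genes called higher and 3.45% called lower. The median log2 fold change of the 9 members was −0.34, against 0.02 over all genes tested, and 2 of the 9 had values that did not overlap between the groups, against 43.7% of all genes tested (23.3% with livers labelled med23 ko above and 20.4% with them below).

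As a check of the labels, *Med23* had 3.42, 2.97 and 4.14 FPKM in the controls and 3.40, 3.40 and 2.91 FPKM in livers labelled med23 ko (log2 fold change −0.11, SE 0.17, adjusted p = 0.685, limma). This level did not separate the groups, although it covers all exons and all cells rather than the deleted part in hepatocytes, and each direction below therefore rests on the labels. The summed FPKM of a library lay between 591848 and 651193, and 15005 to 16718 genes were above 0. Replicate 2 of the livers labelled med23 ko held transcripts of fat tissue (*Adipoq* 5.65 FPKM, *Plin1* 2.76, *Ucp1* 2.29), all of which were at 0 in the controls, so that the calls are also given without it. All 8 hepatocyte markers, such as *Alb* and *Apob*, were present in every library, and 1 of the 8 (*Serpina1a*) fell, against 9.48% of all genes tested. The call of *Serpina1a* held in 1 of the 6 fits with a library left out, the one without control replicate 3 (adjusted p up to 0.113 in the others, limma). In whole liver, fewer cells of a type and less RNA per cell cannot be told apart.

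The promoter DNA of the members that changed is shown because it lies next to the start sites at which these transcripts begin. Windows of 250 bases before the start were read on the reference genome (RefSeq, GRCm38.p6, the assembly of mm10). They were searched on both strands for the AP-1 site (TGANTCA), the cAMP response element or CRE (TGACGTCA), its short form (TGACG, which each full CRE holds on both strands) and the core of the ROR response element (TAGGTCA). The whole window is printed for *Areg* and, for *Met*, the 29 bases around its match, both 5′ to 3′ on the strand of the gene and with matches in capitals.
*Areg* promoter, chr5:91139349-91139598, plus strand: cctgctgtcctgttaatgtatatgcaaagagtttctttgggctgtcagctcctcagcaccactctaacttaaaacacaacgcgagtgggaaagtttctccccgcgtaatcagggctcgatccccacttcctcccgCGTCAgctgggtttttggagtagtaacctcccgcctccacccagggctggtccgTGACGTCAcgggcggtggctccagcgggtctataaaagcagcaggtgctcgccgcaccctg
*Met* AP-1 match, chr6:17463892-17463920, plus strand: tgttgcccggcTGAGTCAcgggccgggca

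The *Areg* window held a full CRE beginning 61 bases before the start and a further short form at 115 bases. A full CRE was found in 1.55% of all 32851 promoter windows of this length, and the short form in 17.8%. The *Met* window held an AP-1 site beginning 54 bases before the RefSeq start, which itself lies 157 bases inside the gene as GENCODE M21 draws it. An AP-1 site was found in 6.75% of all windows. The *Met* window was also rich in CG dinucleotides, with 24, more than in 88.0% of all windows, against 15 for *Areg*. Windows were at hand for 7 of the 10 members (8 windows, since *Hgf* has 2), and of these 1 held an AP-1 site, 1 a full CRE, 3 the short form (*Areg*, *Btc* and *Erbb2*) and 0 the ROR core, which 2.23% of all windows hold. These matches are letters in the sequence, and no factor was measured at them in these data.

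*Areg*, which encodes amphiregulin, an EGFR ligand induced in injured liver, had 2.53, 5.55 and 6.03 FPKM in the controls and 0.775, 0.874 and 0.909 FPKM in livers labelled med23 ko. The lowest control, replicate 1, still lay above every liver labelled med23 ko, and the latter differed from each other by only 1.17-fold, against 2.38-fold among the controls. The means were 4.70 ± 1.90 and 0.852 ± 0.0696 FPKM (SD, n = 3 each). The log2 fold change was −2.24 (SE 0.32, adjusted p = 0.00535, limma). Of the genes tested, 54 had a larger fall. When any 1 library was left out, the log2 fold change lay between −2.63 and −2.02 and the adjusted p between 0.00458 and 0.0296 (limma), and without the fat-containing replicate 2 of med23 ko it was −2.26 (adjusted p = 0.0224, limma). For *Areg* as for *Met*, p was 0.1 by an exact two-sided permutation test, the smallest p that 3 livers against 3 allow.

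*Areg* lies on chromosome 5 of mm10 (91139599 to 91148432, plus strand), in a row of EGF family genes. *Epgn*, *Ereg*, *Areg* and *Btc* follow each other there with no other annotated protein-coding gene between them, over 375531 bases (GENCODE M21). Of its neighbours, *Ereg* and *Btc* were tested and did not pass. *Ereg*, the gene of epiregulin, 45952 bases upstream of *Areg*, had 0.563, 0.345 and 1.16 FPKM in the controls and 0.612, 0.825 and 0.430 FPKM in livers labelled med23 ko. Its groups overlapped throughout, with a log2 fold change of −0.03 and an SE of 0.43 (adjusted p = 0.970, limma). *Btc*, the gene of betacellulin, on the other strand 208828 bases from *Areg*, had 2.81, 1.45 and 4.69 FPKM in the controls and 1.56, 1.92 and 1.30 FPKM in livers labelled med23 ko. Control replicate 2 lay among the livers labelled med23 ko while the other 2 controls lay above them, and the log2 fold change of −0.73 (SE 0.38) did not pass (adjusted p = 0.198, limma). Without control replicate 2 it was −1.16 and passed (adjusted p = 0.0357, limma), and without control replicate 3 it was −0.34 (adjusted p = 0.435, limma). *Epgn*, the gene of epigen, reached at most 0.0557 FPKM in any library. The difference between the changes of *Areg* and of its neighbours was not tested.

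*Tgfa*, the gene of transforming growth factor alpha, was the most abundant of the EGFR ligands, with 13.5, 14.4 and 13.3 FPKM in the controls and 11.3, 14.0 and 9.66 FPKM in livers labelled med23 ko. Its log2 fold change was −0.25 (SE 0.16, adjusted p = 0.287, limma), and the value of med23 ko replicate 2 lay within the range of the controls. *Hbegf*, the gene of heparin-binding EGF-like growth factor, had 2.12, 1.80 and 5.19 FPKM in the controls and 3.33, 2.09 and 1.38 FPKM in livers labelled med23 ko. The highest value, that of control replicate 3, was 2.88 times the lowest control, and the log2 fold change of −0.34 (SE 0.43, adjusted p = 0.602, limma) became 0.12 without that library. Control replicate 3 also had the highest control value of *Areg*, *Ereg*, *Btc*, *Hgf* and *Erbb2*, which makes 6 of the 10 members.

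**Figure D1:**
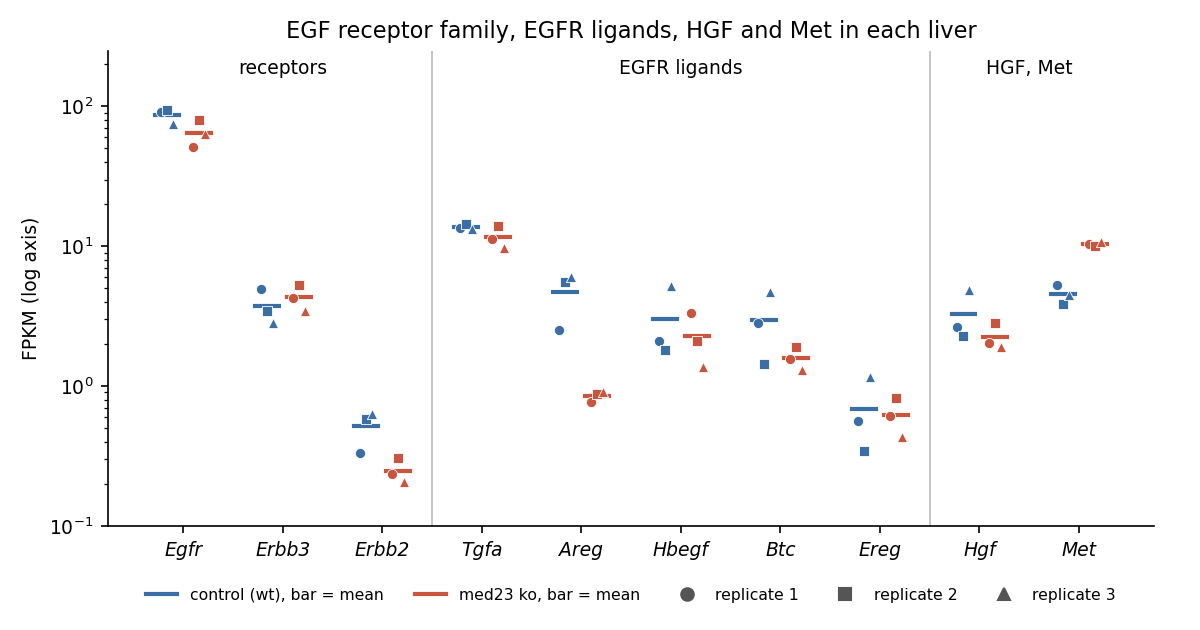
FPKM on a log axis of the 10 members in each of the 6 livers, controls (wt) in blue and livers labelled med23 ko in red, with symbols for replicates 1 to 3 and a bar at each group mean. The values of *Areg* (2.53 to 6.03 against 0.775 to 0.909) and *Met* (3.83 to 5.28 against 10.003 to 10.8) do not overlap, nor do those of *Erbb2*, which lies below the minimum level for testing.

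Summed per library, the 5 EGFR ligands reached 21.5, 23.6 and 30.3 FPKM in the controls and 17.6, 19.7 and 13.7 FPKM in livers labelled med23 ko. The means were 25.1 ± 4.62 and 17.0 ± 3.05 FPKM (SD, n = 3 each). *Tgfa* made up most of the sum in 5 of the livers, at 61.2% to 71.0%, and was below that in control replicate 3 (43.7%). The share of *Areg* was 11.8%, 23.5% and 19.9% in the controls and 4.40%, 4.44% and 6.65% in livers labelled med23 ko, so that *Areg* went from the second most abundant of the ligands by group mean to the fourth. These sums and shares are given as a description and were not tested.

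**Figure D2:**
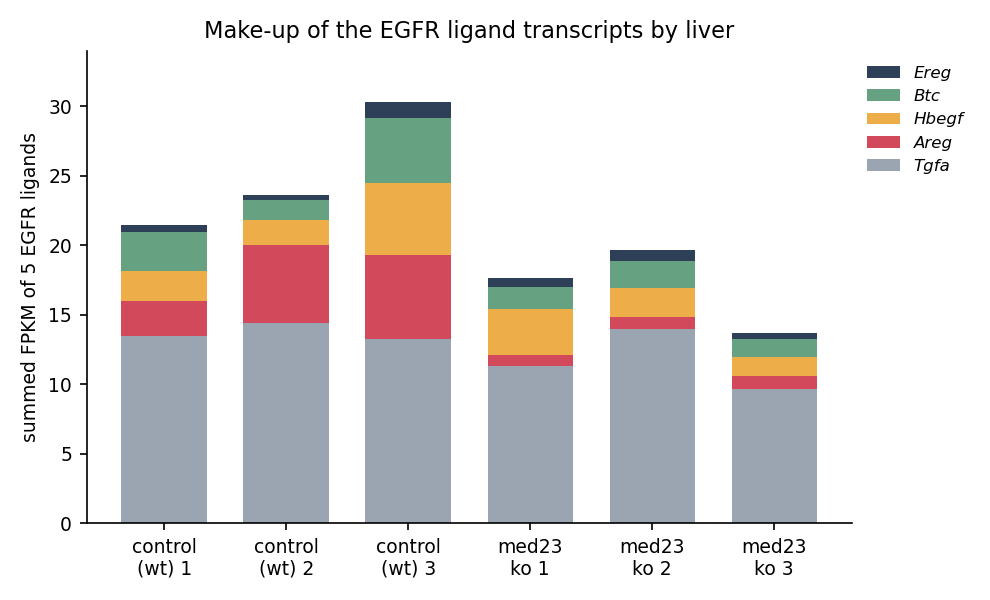
Summed FPKM of the EGFR ligands in each liver, stacked by gene from *Tgfa* at the bottom to *Ereg* at the top. The *Areg* segment measures 2.53 to 6.03 FPKM in the controls and 0.775 to 0.909 FPKM in livers labelled med23 ko, whereas the *Tgfa* segment lies between 9.66 and 14.4 FPKM in all 6.

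Among the receptors, *Egfr* was the most abundant member by far, with 91.2, 94.6 and 74.8 FPKM in the controls and 51.0, 79.8 and 63.3 FPKM in livers labelled med23 ko. Its mean level was above that of 90.7% of the genes tested. Only med23 ko replicate 2 lay within the range of the controls, and the log2 fold change of −0.44 (SE 0.19) did not pass (adjusted p = 0.129, limma). The adjusted p was lowest with quantile normalization (0.0541) and, over the libraries left out in turn, ranged from 0.0811 to 0.377 (limma). *Erbb3*, the partner that carries signals to PI3-kinase, had 4.97, 3.42 and 2.81 FPKM in the controls and 4.29, 5.26 and 3.47 FPKM in livers labelled med23 ko. These ranges overlapped, with a log2 fold change of 0.23 (SE 0.24, adjusted p = 0.512, limma) that went from 0.053 without control replicate 3 to 0.45 without control replicate 1. *Erbb2* had 0.333, 0.586 and 0.634 FPKM in the controls and 0.234, 0.305 and 0.206 FPKM in livers labelled med23 ko. Every control thus lay above every liver labelled med23 ko, but at levels under the minimum for testing. Fitted without a minimum level, its log2 fold change was −0.80 (SE 0.27, adjusted p = 0.109, limma), and p was 0.1 by the exact two-sided permutation test.

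*Met*, on chromosome 6 of mm10 (17463800 to 17573980, plus strand), encodes the HGF receptor. It had 5.28, 3.83 and 4.49 FPKM in the controls and 10.5, 10.003 and 10.8 FPKM in livers labelled med23 ko. Every liver labelled med23 ko lay above every control, and the 3 of them differed by only 1.08-fold. The means were 4.53 ± 0.725 and 10.4 ± 0.385 FPKM (SD, n = 3 each). The log2 fold change was 1.19 (SE 0.15, adjusted p = 0.00374, limma). Among the genes tested, 495 had a larger rise. When any 1 library was left out, the log2 fold change lay between 1.08 and 1.31 and the adjusted p between 0.00524 and 0.0267 (limma), and without med23 ko replicate 2 it was 1.22 (adjusted p = 0.0196, limma). No annotated gene overlaps *Met* or *Areg*.

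*Hgf* had 2.66, 2.28 and 4.88 FPKM in the controls and 2.04, 2.82 and 1.91 FPKM in livers labelled med23 ko. The groups overlapped, and the log2 fold change of −0.46 (SE 0.29) did not pass (adjusted p = 0.288, limma). It was −0.14 without control replicate 3, which alone lay well above the others. Exons of *Hgf* overlap an annotated gene on the same strand, *Gm43489*, whose reads could have been counted with it. Exons of *Erbb2*, *Ereg* and *Tgfa* overlap those of *Mien1*, *Gm19610* and *Gm43917* on the other strand, and without strand their shared reads cannot be told apart either. Some markers of the cells that make HGF fell in the same comparison. Of the 8 stellate cell markers, 7 were tested and 2 fell (*Des* and *Colec11*), against 9.48% of all genes tested. The other 5 did not pass, among them *Reln*, which had a higher mean in livers labelled med23 ko (3.34 ± 0.561 against 2.38 ± 0.422 FPKM, SD, n = 3 each). When any 1 library was left out, *Des* passed only without control replicate 3 (adjusted p up to 0.149 in the other fits, limma), and *Colec11* passed except without med23 ko replicate 1 (adjusted p = 0.0511, limma). Each stellate cell marker was detected in at least 1 library. The summed level of the 8, of which *Colec11* was the largest term, was 28.6 to 30.1 FPKM in the controls and 19.1 to 21.8 FPKM in livers labelled med23 ko. Of the 8 liver endothelial markers, 6 fell, against 9.48% of all genes tested (*Stab2*, *Clec4g*, *Lyve1*, *Kdr*, *Pecam1* and *Fcgr2b*), with a median log2 fold change of −1.03 and a summed level of 114 to 156 FPKM in the controls and 59.0 to 66.6 FPKM in livers labelled med23 ko. Of these 6, *Lyve1* passed in 3 of the 6 fits with a library left out (adjusted p up to 0.0971, limma), *Pecam1* failed only without med23 ko replicate 2 (adjusted p = 0.0515, limma), and the other 4 passed each time. The part of these markers in the values of *Hgf* was not tested.

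**Figure D3:**
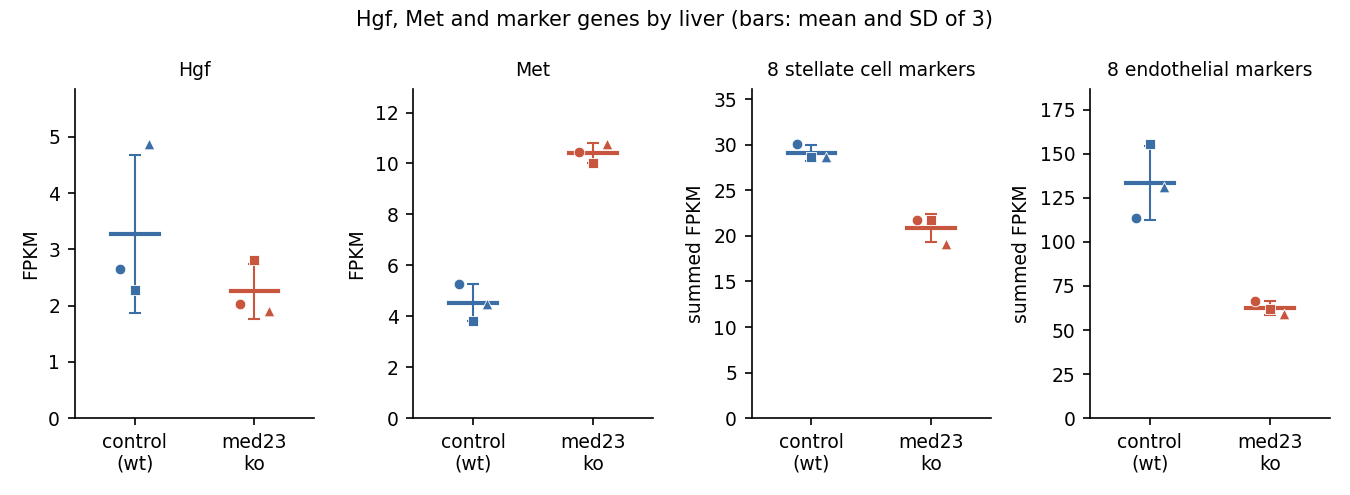
FPKM of *Hgf* and *Met* and summed FPKM of 8 stellate cell and 8 liver endothelial markers in each liver (circle, square and triangle for replicates 1 to 3), with the mean and SD of the 3 livers of a group. *Met* and both marker sums separate the groups (endothelial sum 114 to 156 against 59.0 to 66.6 FPKM), whereas the values of *Hgf* overlap.

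The order of the levels changed mainly through *Met* and *Areg*. In the controls, *Egfr* came first and *Tgfa* second, apart from each other and from the rest. *Areg*, *Met*, *Erbb3*, *Hgf*, *Hbegf* and *Btc* followed with overlapping ranges between neighbours, and *Ereg* and *Erbb2* were lowest, also overlapping. In the livers labelled med23 ko, *Met* came after *Tgfa* at a level that overlapped with it, and *Areg* came after *Btc* at a level that overlapped that of *Ereg*. The ratio of *Egfr* to *Met* within a library was 17.3, 24.7 and 16.7 in the controls and 4.88, 7.98 and 5.88 in livers labelled med23 ko. The ratio of *Met* to its ligand *Hgf* was 1.99, 1.68 and 0.921 in the controls and 5.14, 3.55 and 5.64 in livers labelled med23 ko. Neither ratio overlapped between the groups, which is a description of the same values and has no test.

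The genes whose pattern was most like that of a changed member over the 6 libraries were found by the root mean square difference of mean-centred log2 values. For *Areg* they were *Amigo3* (0.19, falling from 5.60 ± 2.32 to 0.993 ± 0.0907 FPKM) and *Col13a1* (0.27, from 5.44 ± 2.41 to 1.37 ± 0.104 FPKM). For *Met* they were *Aaed1* (0.07, rising from 20.1 ± 2.48 to 48.0 ± 2.38 FPKM) and *Tmed5* (0.09, from 20.5 ± 4.37 to 42.4 ± 2.52 FPKM; SD, n = 3 each). These are the nearest among 11956 genes by choice, and no test was made of the likeness.

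The other genes of the pathway were taken from 6 lists with 73 genes, of which 61 were tested. Of these, 7 rose (11.5%) and 12 fell (19.7%), against 11.6% and 9.48% of all genes tested, and the median log2 fold change, rounded to 2 decimals, was 0.02 in the lists and over all genes tested. When any 1 library was left out, 2 of the 19, *Nrg4* and *Egr1*, passed every time (adjusted p up to 0.0269 and 0.0482, limma), and the other 17 lost their call without at least 3 of the 6 libraries, in each case including livers labelled med23 ko. Without the fat-containing med23 ko replicate 2 the lists had 1 rise and 2 falls (limma), against 478 rises and 424 falls among all 11956 genes tested. At an unadjusted p under 0.05 (limma) the lists had 8 and 14, against 14 and 16 with all libraries. Among all 11956 genes, 3397 lay under that unadjusted threshold without this replicate and 4496 with all libraries. In the same comparison 6 of 8 endothelial and 2 of 7 tested stellate cell markers fell, against 9.48% of all genes tested. Some of these calls were lost when a library was left out, as given above, and the part of the markers in these lists was not tested.

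Of the 7 EGF family ligands and receptor outside the members, only *Nrg1* and *Nrg4* were high enough to be tested. *Nrg4*, the gene of neuregulin 4, a ligand of ErbB4, had 9.46, 9.32 and 21.6 FPKM in the controls and 1.58, 2.53 and 1.86 FPKM in livers labelled med23 ko. This was the largest change in these lists, a log2 fold change of −2.60 (SE 0.34, adjusted p = 0.00388, limma), and the lowest control lay far above the highest liver labelled med23 ko. Exons of *Nrg4* overlap those of *Fbxo22* and *Gm15625* on the other strand, and without strand their shared reads cannot be told apart. The level of *Fbxo22* was 39.5 ± 6.29 FPKM in the controls and 32.1 ± 0.980 FPKM in livers labelled med23 ko (SD, n = 3 each). *Egf* itself was at most 0.218 FPKM in any library, and *Erbb4* and *Nrg3* were at or near 0.

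Of 9 genes of ligand shedding, 7 were tested, and 1 rose and 2 fell, against 11.6% and 9.48% of all genes tested. The genes called are those of the iRhom proteins, which carry ADAM17 to the cell surface, and of an inhibitor of that protease. *Rhbdf1* (iRhom1) fell from 20.1 ± 1.92 to 13.0 ± 1.96 FPKM, and *Rhbdf2* (iRhom2) rose from 13.7 ± 1.15 to 18.9 ± 1.31 FPKM (SD, n = 3 each). The adjusted p was 0.0268 and 0.0424 (limma), and reached 0.0853 without med23 ko replicate 3 and 0.158 without med23 ko replicate 2. *Timp3*, the gene of an inhibitor of ADAM17, fell by 0.76 on the log2 scale (adjusted p = 0.0175, limma, and 0.0636 without med23 ko replicate 3). The protease genes *Adam17*, *Adam10* and *Adam9* were among the 4 that did not pass, whose log2 fold changes lay between −0.30 and 0.12.

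Against 11.6% of all genes tested called higher and 9.48% called lower, 1 rose and 2 fell among the 10 tested of 11 genes that restrain these receptors. *Errfi1*, which encodes MIG6, an inhibitor bound by EGFR and induced by it, was the most abundant of them and fell from 314 ± 39.3 to 219 ± 10.2 FPKM (SD, n = 3 each, log2 fold change −0.51, adjusted p = 0.0368, limma). *Socs5*, a suppressor of cytokine signalling reported to promote EGFR breakdown, fell by 0.79 on the log2 scale (adjusted p = 0.0420, limma). *Rnf41*, whose product is a ubiquitin ligase for ErbB3, rose by 0.90 (adjusted p = 0.0380, limma), the values being 3.12, 3.06 and 5.77 FPKM in the controls and 7.51, 7.60 and 6.51 FPKM in livers labelled med23 ko. The highest adjusted p with a library left out was 0.132 for *Errfi1* (without med23 ko replicate 2), and 0.134 for *Socs5* and 0.120 for *Rnf41* (both without med23 ko replicate 1).

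Of 12 genes around HGF activation, 8 were tested, and 2 fell, against 9.48% of all genes tested. Both are serine proteases of hepatocytes that cleave the HGF precursor. *Hgfac*, the HGF activator, had 83.2, 104 and 65.8 FPKM in the controls and 48.6, 57.8 and 46.8 FPKM in livers labelled med23 ko (log2 fold change −0.70, SE 0.19, adjusted p = 0.0349, limma). *Hpn*, which encodes hepsin, fell from 229 ± 40.0 to 152 ± 3.54 FPKM (SD, n = 3 each, adjusted p = 0.0387, limma). Their calls were lost without any library but control replicate 3, up to an adjusted p of 0.118 for *Hgfac* (without med23 ko replicate 1) and 0.115 for *Hpn* (without med23 ko replicate 2). The 6 that did not pass had log2 fold changes between −0.85 and 0.08.

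The list of adaptors and signal relay holds 18 genes, mostly of the route from the receptors to ERK but also the PI3-kinase branch, the phosphatase gene *Ptpn11* and *Stat3*. All 18 were tested, and 3 rose and 1 fell, against 11.6% and 9.48% of all genes tested. *Pik3r1*, the regulatory subunit of PI3-kinase, had the largest rise, from 4.99 ± 1.85 to 10.5 ± 1.82 FPKM (SD, n = 3 each, log2 fold change 1.12, adjusted p = 0.0283, limma). *Nras* rose by 0.64 (adjusted p = 0.0175, limma) and the exchange factor gene *Sos1* by 0.54 (adjusted p = 0.0486, limma), both on the log2 scale. The adaptor gene *Shc1* fell from 34.2 ± 2.51 to 23.3 ± 0.830 FPKM (SD, n = 3 each, adjusted p = 0.0191, limma). All 4 calls were lost without any 1 of the livers labelled med23 ko, with an adjusted p of up to 0.106 for *Pik3r1* (without replicate 3), 0.0775 for *Nras* (without replicate 2), and 0.168 for *Sos1* and 0.0795 for *Shc1* (both without replicate 1). The other 14 did not pass.

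The last list holds 16 genes that ERK induces, among them inhibitors that act back on the pathway and transcription factors of its output. All 16 were tested. Against 11.6% of all genes tested called higher and 9.48% called lower, 2 rose and 4 fell. Those that fell are *Egr1*, an immediate early transcription factor, *Etv4*, an ETS factor, and the Sprouty genes *Spry1* and *Spry4*, inhibitors of Ras activation. *Egr1* had 27.1, 19.0 and 28.1 FPKM in the controls and 13.0, 12.6 and 11.3 FPKM in livers labelled med23 ko (log2 fold change −0.98, SE 0.17, adjusted p = 0.0102, limma). The log2 fold change was −1.24 for *Etv4* (adjusted p = 0.0287, limma), −0.65 for *Spry1* (0.0245) and −0.58 for *Spry4* (0.0455). *Etv4* lay near the minimum level, with 0.953, 1.82 and 1.29 FPKM in the controls and 0.671, 0.386 and 0.466 FPKM in livers labelled med23 ko. At a pseudocount of 1 its log2 fold change was −0.63 (adjusted p = 0.0298, limma). *Fosl1*, which encodes the AP-1 subunit FRA1, and *Ier3*, an early response gene, moved the other way. *Fosl1* had 2.22, 1.23 and 4.26 FPKM in the controls and 9.54, 7.27 and 7.58 FPKM in livers labelled med23 ko (log2 fold change 1.78, SE 0.38, adjusted p = 0.0178, limma). *Ier3* rose from 22.3 ± 11.7 to 60.9 ± 4.29 FPKM (SD, n = 3 each, adjusted p = 0.0153, limma). Without med23 ko replicate 1 the adjusted p was 0.0693 for *Fosl1* and 0.0605 for *Ier3*, and it reached 0.0937 for *Etv4* (without med23 ko replicate 2), and 0.0888 for *Spry1* and 0.139 for *Spry4* (both without med23 ko replicate 3). Of these 6 calls, that of *Egr1* held when any 1 library was left out. The other 10 genes of the list did not pass, and the median log2 fold change of the list was −0.22, against 0.02 over all genes tested.

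**Figure D4:**
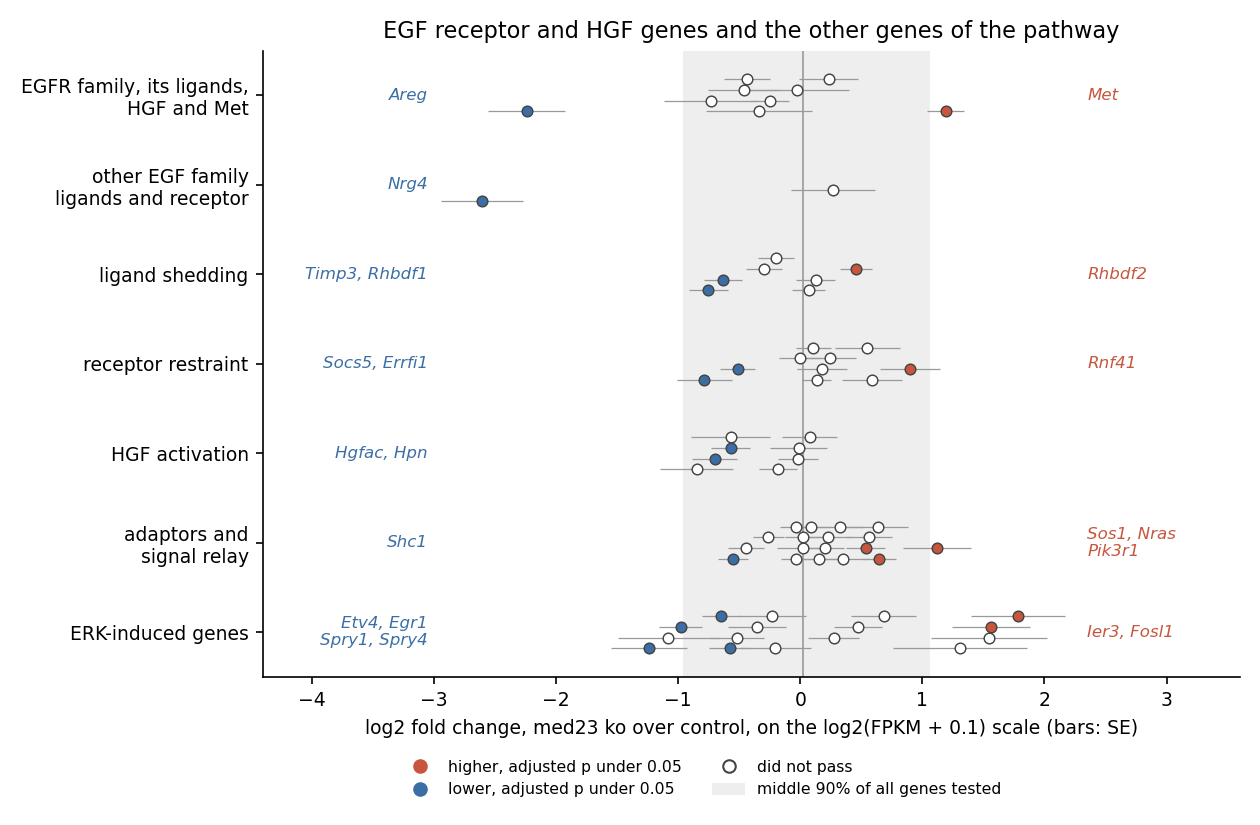
Log2 fold change with SE of each tested gene, med23 ko over control, in the 10-member set and the 6 other lists of the pathway, with the grey band holding the middle 90% of all 11956 genes tested (−0.95 to 1.06). *Areg* and *Nrg4* lie far to the left of the band, *Met* lies just to the right of it, and the ERK-induced genes that passed are on both sides of 0.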

How the data were processed

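Libraries were made from total RNA of whole liver (TruSeq v2) and sequenced as paired reads. The authors trimmed adapters, aligned with TopHat to UCSC mm10 and deposited Cuffdiff FPKM values per library. Versions, annotation, library scaling and strand handling are not given in the sources used here. The table also holds group means, fold changes and the p- and q-values that the authors' own test gave, none of which was used. FPKM values carry no read counts and the study's methods give only a median read number, so the depth of each library is unknown and the spread between 3 livers is the only error used. The labels number each library as a liver of its group and say nothing further of the animals, so p-values measure the spread between these livers, part of which may be technical.

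The 11956 of 24346 genes whose mean reached 0.5 FPKM were tested as log2(FPKM + 0.1) with limma 3.58.1 in R 4.3.3 (eBayes with a trend, Benjamini-Hochberg adjustment). Changes of genes near the pseudocount come out too small on this scale. The test was checked on simulated data. The members, lists and tests were chosen with earlier results of these data known. Named genes are all members, list genes past the threshold, *Egf*, *Epgn*, *Hgfac*, *Errfi1* and the 2 genes nearest in pattern to each changed member; others named within a list (such as *Adam17*) were chosen after their values were seen. The settings varied were the pseudocount (1 or 0.01), the minimum level (none, or 1 FPKM), median centring, quantile normalization, eBayes (no trend, or robust), the replicate number as a block, and each library left out. Positions come from GENCODE M21, promoters from RefSeq. Python 3.11.15 was used.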

Additional observations from a re-analysis of the deposited data

How the results depend on the processing

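*Met* and *Areg* kept their direction and passed under all 15 alternatives. Adjusted p ranged from 0.00276 to 0.0267 for *Met* and from 0.00369 to 0.0296 for *Areg* (limma), with a log2 fold change of −1.56 at a pseudocount of 1. With any 1 library left out, 1 to 2 members fell (*Btc* passed without control replicate 2), and 1 rose. Of the values that did not pass, those of *Ereg*, *Hbegf* and *Med23* changed sign in these fits, and those of *Egfr*, *Erbb3*, *Tgfa*, *Btc* and *Hgf* did not. The log2 fold change lay between −0.37 and 0.38 for *Ereg*, −0.65 and 0.12 for *Hbegf* and −0.22 and 0.017 for *Med23*. The highest of each came without control replicate 3, and without med23 ko replicate 3 *Ereg* was at 0.18. Of 61 tested pathway genes, 4 rose and 7 fell without a filter and 3 rose and 3 fell with the replicate block, against 7 and 12; with 1 library left out, 0 to 12 rose and 2 to 12 fell. Without control replicate 3, 12 rose, and without control replicate 1, 2 rose and 6 fell; 7 fell without control replicate 2. Without med23 ko replicate 1, 2 or 3, 0, 1 and 0 rose and 2 fell each time (limma). At an unadjusted p under 0.05 (limma), 8, 8 and 11 rose and 15, 14 and 13 fell in these fits, against 14 and 16 with all libraries. Among all genes tested, 3327, 3397 and 3657 lay under that unadjusted threshold, against 4496 with all libraries. Over all genes, leaving out 1 library gave 397 to 1723 higher and 343 to 1420 lower, the lowest of both without med23 ko replicate 1, and the replicate block 809 and 614, against 1384 and 1133. The labels do not say whether the replicate numbers pair the libraries. Same-numbered libraries had correlations of −0.02, −0.05 and −0.12 between their deviations from the group means. Of 6 libraries, 0 correlated best with the library of their own number. With 3 libraries in a group, these values cannot settle whether a pairing exists. Median centring and quantile normalization changed no call among the members. The pathway lists had 6 rises and 13 falls with median centring, 5 and 11 with eBayes without a trend, and 6 and 12 with robust eBayes. *Rhbdf2* lost its call with median centring (adjusted p = 0.0549, limma). Without a trend *Rhbdf2* (0.0576), *Sos1* (0.0502) and *Hpn* (0.0519) lost theirs, as did *Sos1* with robust eBayes (0.0520). *Erbb2*, *Ereg* and *Epgn* in both groups and *Areg* and *Etv4* in livers labelled med23 ko had means under 1 FPKM, and the number of fragments behind these values is not known.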
